A study of Mus musculus with 8 samples.

Results

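The 8 genes described here, Irx1, Irx2, Etv1, Pou3f4, Ttr, Gc, Crp and Dpp4, were listed together as transcription factor genes and marker genes of the pancreatic alpha cell. The listing was not checked in these islets, and Dpp4 differed from the others in direction. They were taken by symbol from a table of 14126 genes measured in islets of 8 mice, 4 labelled KO and 4 labelled WT, and all 8 symbols were found. KO mice carried the genotype written IRE1α β-/- in the labels, a deletion of the stress sensor gene Ern1 (IRE1α) in beta cells, and WT mice were IRE1α fl/fl. Both groups were NOD/ShiLtJ mice, 7 weeks old, and the treatment text, which is the same for every library, gives intraperitoneal tamoxifen at 10 mg/ml on 5 consecutive days. The promoter that drives the Cre recombinase is not given in the sources used here, and neither is whether the WT mice carried it. mRNA of hand-picked islets was sequenced in bulk, so every value is a sum over all islet cells. A larger number of alpha cells cannot be told apart from more RNA per alpha cell. Nor can either be told apart from RNA of other cells or from a smaller share of beta cell RNA.

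Alpha cells secrete glucagon, which raises blood glucose, and they are the islet cells that neighbour the insulin-secreting beta cells. Their identity rests on transcription factors, among them members of the Iroquois, POU and ETS families. Besides the glucagon gene Gcg, alpha cells of the mouse express genes of secreted carrier proteins that are otherwise best known from the liver.

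The libraries held totals of 32024139 to 34858983 normalized counts. The 11 beta cell markers summed to 2549379 to 3497714 in KO islets and 5376313 to 6016581 in WT islets, and none was at 0, as the islet label requires. Ern1 itself was not lower in the libraries labelled KO, with 6922 to 7390 against 4500 to 5549 in the WT libraries (0.54 ± 0.08 on the log2 scale, adjusted p = 0.00234). These gene totals do not separate the floxed exons from the rest, so they do not check the genotype, and KO and WT below stand for the labels. In both groups replicates 3 and 4 also differed from replicates 1 and 2, with 1325 genes higher and 856 lower in the second set once genotype was accounted for. The labels do not say what the split is, and each gene below is therefore also given within each set of libraries.

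The 8 genes lie on 7 chromosomes, the Iroquois pair together on chromosome 13. In GRCm38 Irx1 spans chr13:71957921-71963723 on the minus strand and Irx2 chr13:72628820-72634198 on the plus strand, with 665096 bases between them. On the plus strand lie Etv1 at chr12:38779380-38870484, Pou3f4 at chrX:110814280-110817207 and Crp at chr1:172698055-172833031. On the minus strand lie Gc at chr5:89417522-89457898 and Dpp4 at chr2:62330073-62412231, and all of these genes are protein-coding. An antisense gene, Gm13561, overlaps Dpp4, and a processed pseudogene, Gm38051, overlaps Crp. Neither is in the table. Overlap was looked for between whole gene spans and not between exons, Gm38051 lies on the same strand as Crp, and the strand used in counting is not given. Whether reads of either were counted with Dpp4 or Crp is therefore not known.

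Start-site windows from RefSeq (GRCm38.p6), running from 250 bases before to 50 after an annotated start, were found for 6 of the 8 genes. The 4 windows below belong to genes that were higher in KO islets (Irx2, Etv1 and Gc) and to the gene that was lower (Dpp4). The windows of Crp, which was also higher, of Pou3f4 and of a second Etv1 start are not shown. Each is printed 5′ to 3′ on the strand of the gene, and capitals mark CG dinucleotides.
Irx2, chr13:72628570-72628869, plus strand: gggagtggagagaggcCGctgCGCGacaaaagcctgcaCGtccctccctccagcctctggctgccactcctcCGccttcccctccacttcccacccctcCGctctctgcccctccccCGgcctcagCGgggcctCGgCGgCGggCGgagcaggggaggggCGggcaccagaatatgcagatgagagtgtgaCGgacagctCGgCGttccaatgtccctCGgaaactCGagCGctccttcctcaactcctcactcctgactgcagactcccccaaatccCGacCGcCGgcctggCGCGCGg
Etv1, chr12:38783461-38783760, plus strand: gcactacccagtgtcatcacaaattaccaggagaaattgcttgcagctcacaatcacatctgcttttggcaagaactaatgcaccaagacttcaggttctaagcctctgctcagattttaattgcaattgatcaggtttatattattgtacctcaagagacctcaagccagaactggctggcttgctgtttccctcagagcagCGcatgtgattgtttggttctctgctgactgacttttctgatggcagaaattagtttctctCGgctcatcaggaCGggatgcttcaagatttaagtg
Gc, chr5:89457849-89458148, minus strand: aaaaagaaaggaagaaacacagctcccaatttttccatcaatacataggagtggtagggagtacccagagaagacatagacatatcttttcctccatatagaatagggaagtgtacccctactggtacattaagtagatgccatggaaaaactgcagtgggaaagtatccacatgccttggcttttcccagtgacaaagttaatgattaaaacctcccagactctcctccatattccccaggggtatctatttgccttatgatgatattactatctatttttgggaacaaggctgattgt
Dpp4, chr2:62412182-62412481, minus strand: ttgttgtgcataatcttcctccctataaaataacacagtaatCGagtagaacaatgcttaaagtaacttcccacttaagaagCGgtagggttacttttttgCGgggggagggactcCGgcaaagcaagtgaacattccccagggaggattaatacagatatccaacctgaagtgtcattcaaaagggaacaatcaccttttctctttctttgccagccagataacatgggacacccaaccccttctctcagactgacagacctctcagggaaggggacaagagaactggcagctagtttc

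The windows differed in base composition. That of Irx2 had 69.0% G and C and 25 CG dinucleotides, whereas that of Gc had 40.3% and 0, and that of Dpp4 had 45.3% and 4. Over all 32851 windows of the RefSeq table, the median was 52.7% G and C and 7 CG dinucleotides, with quartiles of 3 and 20 for the CG count. The Etv1 window shown had 44.0% and 3 CG dinucleotides, and a second Etv1 start had 48.7% and 12. Pou3f4 (57.7% and 15) and Crp (45.0% and 3) make up the rest. Genes with CG-rich and CG-poor starts were thus both among those that were higher. Searched on both strands for TAATTA (a homeodomain core), TGTTTAC (forkhead), TGCTGA (a MAF half-site), ATGCAAA (an octamer core) and CCGGAAG (ETS), the 7 windows held a single match, TGCTGA in the Etv1 window shown. That word occurs in 19.5% of all windows, against 5.29% for TAATTA, 3.65% for TGTTTAC, 4.63% for ATGCAAA and 8.86% for CCGGAAG.

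Of the 8 genes, 5 were higher in KO islets than in WT islets (Irx2, Etv1, Ttr, Gc and Crp), 1 was lower (Dpp4), and Irx1 and Pou3f4 did not pass (limma-trend on log2(value + 1), adjusted p under 0.05). Over all 14121 genes tested, 11.1% were called higher and 9.81% lower. The median log2 fold change of the 8 genes was 1.25, beside a median of -0.0008 over all genes tested. A median of this size was not particular to them. Marker lists of other cells had medians of 1.61 (acinar), 1.32 (stellate and fibroblast), 1.13 (ductal) and 1.04 (delta, PP and epsilon). The liver list had 1.3, but it includes Ttr and Gc, and that median is the value of Gc itself. Medians were 0.45 for Schwann, 0.32 for T cell, 0.15 for endothelial, 0.03 for macrophage and -0.98 for beta cell markers. In 6 genes every KO library lay above every WT library, an arrangement that 13.6% of all tested genes showed. In Dpp4 every KO library lay below every WT library, as in 12.3% of tested genes, and in Pou3f4 the groups overlapped.

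The authors' deposited table had 7 of the 8 genes higher and 1 lower, where 16.2% and 13.1% of its genes were. Replicates 1 and 2 alone gave 7 higher and 1 lower, beside 12.5% and 11.1% of tested genes, and replicates 3 and 4 alone gave 4 higher and 1 lower, beside 11.5% in each direction. With replicate number as a block, 5 were higher and 1 lower, beside 14.2% and 11.7% of tested genes.

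**Figure D1:**
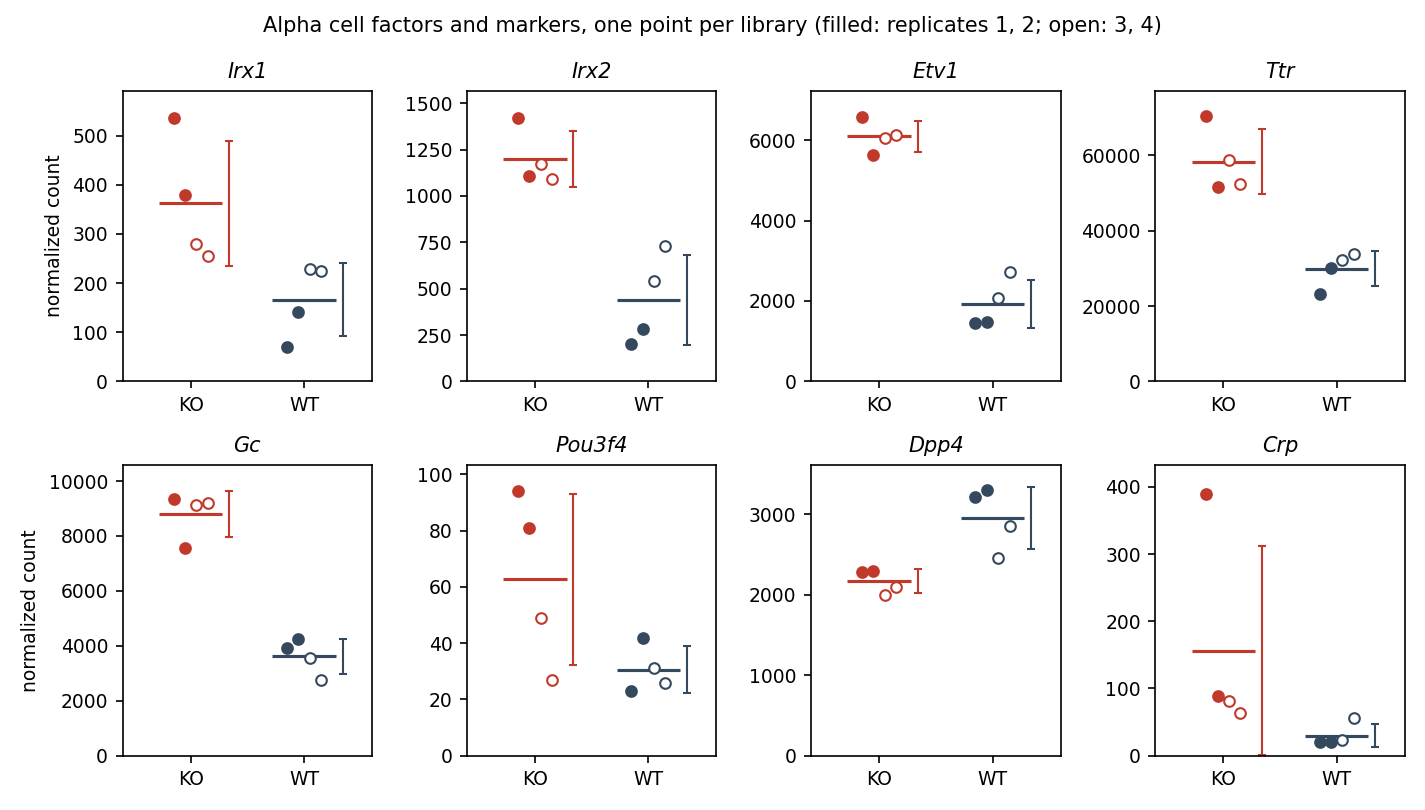
Normalized counts of the 8 genes in each library, KO left of WT in every panel, with filled points for replicates 1 and 2, open points for 3 and 4, horizontal lines for means and bars for SD (n = 4 each). KO points lie above all WT points for every gene but Pou3f4, where the groups overlap, and Dpp4, where they lie below.

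Irx1 and Irx2 encode homeodomain proteins of the Iroquois family, and in the mouse both are expressed in alpha cells from development onwards. Irx2 had 1419, 1110, 1170 and 1094 normalized counts in KO replicates 1 to 4, against 202, 285, 539 and 731 in WT replicates 1 to 4. The KO libraries were close to each other and all above the WT libraries, which spread widely and were higher in replicates 3 and 4 than in 1 and 2. Its means were 1198 ± 151 in KO islets and 439 ± 242 in WT islets (SD, n = 4 each), and the log2 fold change was 1.62 ± 0.36 (SE), with an adjusted p of 0.0134 in limma-trend.

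Irx1, its neighbour on chromosome 13, was less abundant per length. It had 535, 380, 280 and 255 normalized counts in KO islets, against 71, 142, 229 and 224 in WT islets. The groups did not overlap, but KO replicates 3 and 4 exceeded WT replicates 3 and 4 only slightly. The log2 fold change of 1.20 ± 0.39 did not pass after adjustment (adjusted p = 0.0567, unadjusted p = 0.0126). This call depended on the setting, and the authors' deposited table gave 1.16 with an FDR of 0.00366. Without WT replicate 3 or WT replicate 4 the adjusted p was 0.0486 or 0.043, and without other single libraries it reached up to 0.137.

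In both Iroquois genes the difference between labels was larger in the first set of libraries. For Irx1 the log2 fold change was 2.15 in replicates 1 and 2 alone and 0.24 in replicates 3 and 4 alone. For Irx2 it was 2.38 and 0.85 in the same sets. The test of the difference between the sets did not pass after adjustment over all genes (adjusted p = 0.105 for Irx1 and 0.0842 for Irx2), and 0.0991% of tested genes were called by it. Of the 5 other Iroquois-class genes looked for, Mkx alone was in the table. It had 100 to 149 normalized counts in KO islets and 37 to 82 in WT islets (log2 fold change of 1.21 ± 0.26, adjusted p = 0.0119). Irx3, Irx4, Irx5 and Irx6 were not analysed here.

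Etv1 encodes an ETS transcription factor of the PEA3 group, whose transcription commonly follows signalling by fibroblast growth factors through ERK. It had 6562, 5624, 6063 and 6139 normalized counts in KO islets, against 1443, 1487, 2067 and 2718 in WT islets. The lowest KO library lay far above the highest WT library, and the KO values varied little. The means were 6097 ± 384 and 1929 ± 598 in KO and WT islets (SD, n = 4 each), and the log2 fold change was 1.71 ± 0.19 (adjusted p = 0.000544, limma-trend). The log2 fold change was 2.05 within replicates 1 and 2 and 1.36 within replicates 3 and 4, and 1.58 to 1.89 with any single library left out.

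The other genes of the PEA3 group were also higher. Of 11 genes of the PEA3 group and of ERK feedback, 6 were higher (Etv4, Etv5, Dusp6, Spred1, Spred2 and Il17rd), 0 lower, and 5 did not pass. Etv4 had 53 to 78 normalized counts in KO islets and 9 to 15 in WT islets, a log2 fold change of 2.46 ± 0.30 (adjusted p = 0.000848). Etv5 had 2362 to 3217 in KO islets and 709 to 878 in WT islets, with a log2 fold change of 1.71 ± 0.12 (adjusted p = 8.73e-05). Dusp6, an ERK phosphatase, was higher by 1.29 ± 0.28 on the log2 scale (adjusted p = 0.013). Dusp5 did not pass, and its values followed the library sets instead, with 7110 to 7959 in KO replicates 3 and 4 and 1336 to 1338 in KO replicates 1 and 2. WT islets showed the same split of Dusp5, with 6981 to 10370 in replicates 3 and 4 and 871 to 966 in replicates 1 and 2.

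Pou3f4, or Brn4, encodes a POU domain factor of alpha cells. It was the least abundant gene of the 8 in KO islets per length, with 94, 81, 49 and 27 normalized counts in KO islets against 23, 42, 31 and 26 in WT islets. KO replicates 1 and 2 were above all WT libraries, while KO replicate 4 lay within the WT range. The log2 fold change of 0.90 ± 0.41 did not pass (adjusted p = 0.153). It was 1.46 within replicates 1 and 2 (adjusted p = 0.0339) and 0.35 within replicates 3 and 4 (adjusted p = 0.564). With single libraries left out it ranged from 0.66 without KO replicate 1 (adjusted p = 0.326) to 1.25 without KO replicate 4 (adjusted p = 0.0453). Quantile normalization gave 0.48 (adjusted p = 0.489), library weights gave 0.58 (adjusted p = 0.332), and the authors' deposited table gave 0.94 with an FDR of 0.0473. Of the other POU genes looked for, 3 were measured and none passed. The most abundant were Pou2f1, with 1264 to 1592 normalized counts in KO islets and 1011 to 1444 in WT islets, and Pou6f1, with 285 to 408 in KO islets and 304 to 466 in WT islets.

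Ttr encodes transthyretin, which carries thyroid hormone and, bound to retinol-binding protein, retinol in blood. The gene lies at chr18:20665280-20674321 on the plus strand and is protein-coding. It was the most abundant of the 8 per length, with 70486, 51578, 58881 and 52456 normalized counts in KO islets against 23321, 30217, 32328 and 33697 in WT islets. The groups were well apart. Its log2 fold change of 0.97 ± 0.15 (adjusted p = 0.00241) was 1.18 within replicates 1 and 2 and 0.75 within replicates 3 and 4.

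Gc encodes the vitamin D-binding protein of plasma. It had 9351, 7558, 9132 and 9195 normalized counts in KO islets, against 3914, 4230, 3558 and 2763 in WT islets. The lowest KO library exceeded the highest WT library by a wide margin, and WT replicates 3 and 4 were lower than WT replicates 1 and 2, opposite to Irx2, Etv1 and Ttr. The means were 8809 ± 839 and 3616 ± 632 in KO and WT islets (SD, n = 4 each), and the log2 fold change was 1.30 ± 0.14 (adjusted p = 0.000427). Within replicates 1 and 2 the log2 fold change was 1.05 and within replicates 3 and 4 it was 1.55. Gc was the only gene of the 8 with the larger rise in replicates 3 and 4, and that difference between sets did not pass (adjusted p = 0.218).

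Both carriers are also liver genes, and other liver plasma protein genes were read beside them. Of 5 measured genes of the liver marker list, which includes Ttr and Gc, 4 were higher and Fgb did not pass. Alb, the albumin gene, had 134 to 324 normalized counts in KO islets and 52 to 70 in WT islets (log2 fold change of 1.69 ± 0.26, adjusted p = 0.00258). Serpina1a had 73 to 168 in KO islets and 24 to 47 in WT islets (1.61 ± 0.34, adjusted p = 0.0116). Apoa1, Apoa2 and Ahsg were not analysed here. The part of liver-type transcripts in the Ttr and Gc results was not tested.

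Crp encodes C-reactive protein, a pentraxin that the liver releases in the acute phase of inflammation in humans and, at lower levels, in mice. It had 389, 89, 82 and 64 normalized counts in KO islets, against 20, 20, 24 and 56 in WT islets. KO replicate 1 stood far above the other KO libraries, and KO replicate 4 was only just above WT replicate 4. The log2 fold change was 2.06 ± 0.58 (adjusted p = 0.0352), the largest estimate of the 8 with the largest error. Without KO replicate 1 it was 1.48 (adjusted p = 0.044), and the call was lost without KO replicate 2, KO replicate 3, WT replicate 1, WT replicate 2 or WT replicate 3 (adjusted p of 0.0542 to 0.0863). It was also lost after quantile normalization (1.68, adjusted p = 0.0707). Within replicates 3 and 4 alone the log2 fold change was 0.96 (adjusted p = 0.138), against 3.16 within replicates 1 and 2.

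KO replicate 1 was also high in other genes. The ductal marker Krt19 had 1673 normalized counts in KO replicate 1, 54 to 216 in the other KO libraries and 46 to 80 in WT islets. Lcn2, an acute-phase and epithelial gene, had 667 in KO replicate 1, 84 to 119 in the other KO libraries and 19 to 34 in WT islets. The 9 ductal markers summed to 19543 to 41181 in KO islets and 11647 to 24951 in WT islets, 2 of 9 were called higher (Spp1 and Muc1), and none was at 0. Their part in the Crp result was not tested. Of 9 measured acute-phase and liver plasma protein genes, 4 were higher (Lcn2, Alb, Serpina1a and Trf) and 5 did not pass. Among those 5, Serpina3n had 103 to 1099 in KO islets and 26 to 1206 in WT islets, and the high values belonged to replicates 3 and 4 of both groups.

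Dpp4 encodes dipeptidyl peptidase 4, a cell-surface protease that cleaves the incretins GLP-1 and GIP. It had 2282, 2297, 1996 and 2097 normalized counts in KO islets, against 3211, 3302, 2456 and 2858 in WT islets. Every KO library lay below every WT library, and replicates 3 and 4 were the lower ones in both groups. The log2 fold change was -0.44 ± 0.10 (adjusted p = 0.0182), with -0.51 in replicates 1 and 2 and -0.37 in replicates 3 and 4. The call was lost without KO replicate 3 (adjusted p = 0.054), KO replicate 4 (0.0515) or WT replicate 2 (0.0524), and when totals were rescaled without hormone and mitochondrially encoded genes (-0.40, adjusted p = 0.0509).

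Genes related to DPP4 changed in both directions. Of 8 measured family members, 3 were higher, 2 lower and 3 did not pass. Dpp6, which encodes a protease-dead partner of potassium channels, had 2683 to 2870 normalized counts in KO islets and 647 to 832 in WT islets, a log2 fold change of 1.94 ± 0.10 (adjusted p = 3.05e-05). Dpp10, of the same kind, was higher by 1.02 ± 0.10 on the log2 scale (adjusted p = 0.000389). Fap, the closest relative of Dpp4 and a fibroblast protease, had 24 to 78 in KO islets and 10 to 20 in WT islets (1.61 ± 0.45, adjusted p = 0.0332). Markers of stellate cells and fibroblasts summed to 6172 to 17195 in KO islets and 1709 to 8615 in WT islets, with 1 of 9 called higher, and their part in the Fap result was not tested. The lower ones were Dpp7 (-0.49 ± 0.08, adjusted p = 0.00425) and Dpp9 (-0.44 ± 0.10, adjusted p = 0.0184). The receptors of GLP-1 and GIP, and the glucagon receptor, were lower, and Glp2r of the same list was not analysed here. Log2 fold changes were -1.66 ± 0.14 for Glp1r (adjusted p = 0.000134), -1.25 ± 0.13 for Gipr (adjusted p = 0.000438) and -1.25 ± 0.14 for Gcgr (adjusted p = 0.000519). Glp1r is also one of the 11 beta cell markers, of which 8 were lower. The part of lower beta cell transcripts in these receptor results was not tested.

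**Figure D2:**
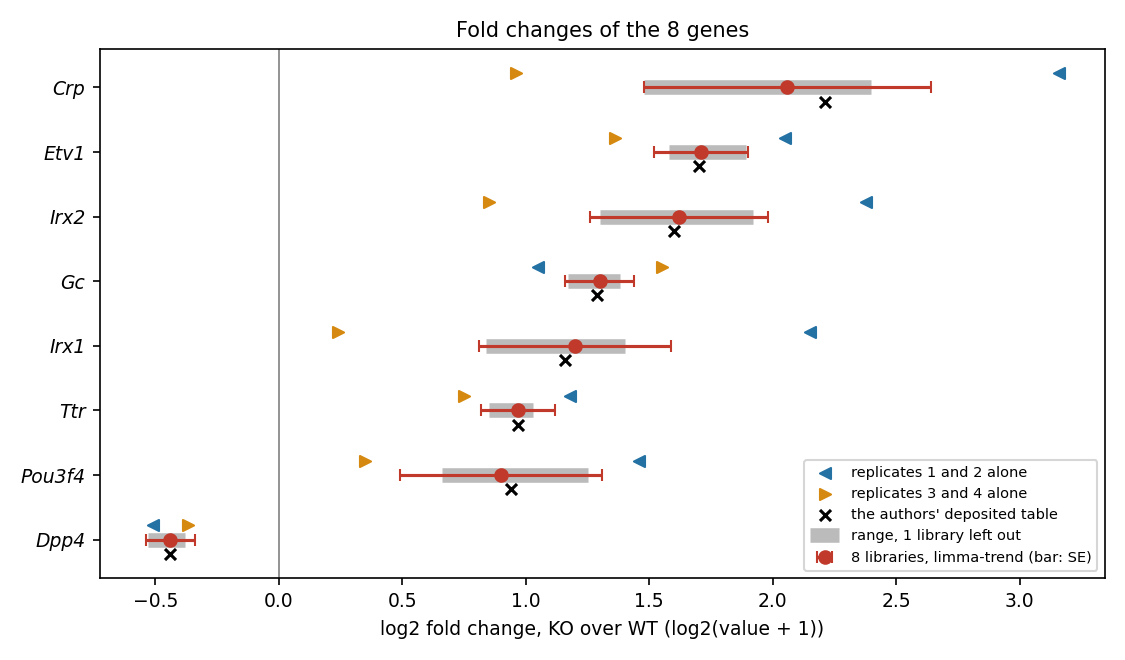
Log2 fold change of each of the 8 genes, KO over WT, over all 8 libraries (red points with SE bars), within replicates 1 and 2 (blue), within replicates 3 and 4 (orange), with any single library left out (grey range) and in the authors' deposited table (crosses). Estimates lie right of 0 for 7 genes and left of 0 for Dpp4 in every set shown, and Irx1 spans 0.24 to 2.15 between the library sets.

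The genes were then ordered by level per kilobase of exon, the sum of all annotated exons, which understates a gene such as Etv1 whose 13296 exon bases cover alternative transcripts. In KO islets the order was Ttr, with 49200 ± 7350 normalized counts per kilobase, Gc with 4770 ± 455, Etv1 with 459 ± 28.9, Irx2 with 365 ± 45.9, Dpp4 with 343 ± 23.2, Irx1 with 138 ± 48.5, Crp with 45.3 ± 45.2 and Pou3f4 with 21.4 ± 10.4 (SD, n = 4). Ranges overlapped between Etv1 and Irx2, between Irx2 and Dpp4, between Irx1 and Crp, and between Crp and Pou3f4. In WT islets Ttr (25200 ± 3890) and Gc (1960 ± 342) again led, followed by Dpp4 with 468 ± 60.9, Etv1 with 145 ± 45.0, Irx2 with 134 ± 73.6, Irx1 with 63.5 ± 28.7, Pou3f4 with 10.4 ± 2.85 and Crp with 8.71 ± 5.06. There, ranges overlapped between Etv1 and Irx2, between Irx2 and Irx1, and between Pou3f4 and Crp. Dpp4 thus followed Gc in WT islets, apart from Etv1, while in KO islets its range overlapped that of Irx2. Gcg lay far above all of them, at 1420000 ± 196000 per kilobase in KO islets and 450000 ± 183000 in WT islets.

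The fold changes were compared among the 8 genes through the log2 ratio of each pair within a library. Of 28 pairs, 8 had ratios that did not overlap between KO and WT libraries, a share that was not computed over all gene pairs of the table. These 8 reached the smallest p that 4 against 4 libraries allow, 0.0286 by an exact two-sided permutation test. With adjustment over the 28 pairs that p becomes 0.1, so 0 pairs passed. With libraries paired by replicate number, a test added after the data were seen, 4 pairs of libraries cannot give a p under 0.125 by exact sign flips, and 12 of the 28 gene pairs had the same sign in all 4. Unpaired, a gene pair could pass at this number of libraries only if more of the 28 had separated. The 8 pairs were the 7 that include Dpp4, with differences between log2 fold changes of 1.34 (Pou3f4 minus Dpp4) at the near end and -2.50 (Dpp4 minus Crp) at the far end, and the pair Etv1 minus Ttr, at 0.74. In 6 genes every KO library lay above every WT library, and in Dpp4 every KO library lay below. The ratios of those 6 genes to Dpp4 therefore had to separate, and they add nothing to the single-gene results. The other 20 pairs overlapped, with Irx2 and Etv1 apart by 0.09 and Ttr and Pou3f4 by 0.06.

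**Figure D3:**
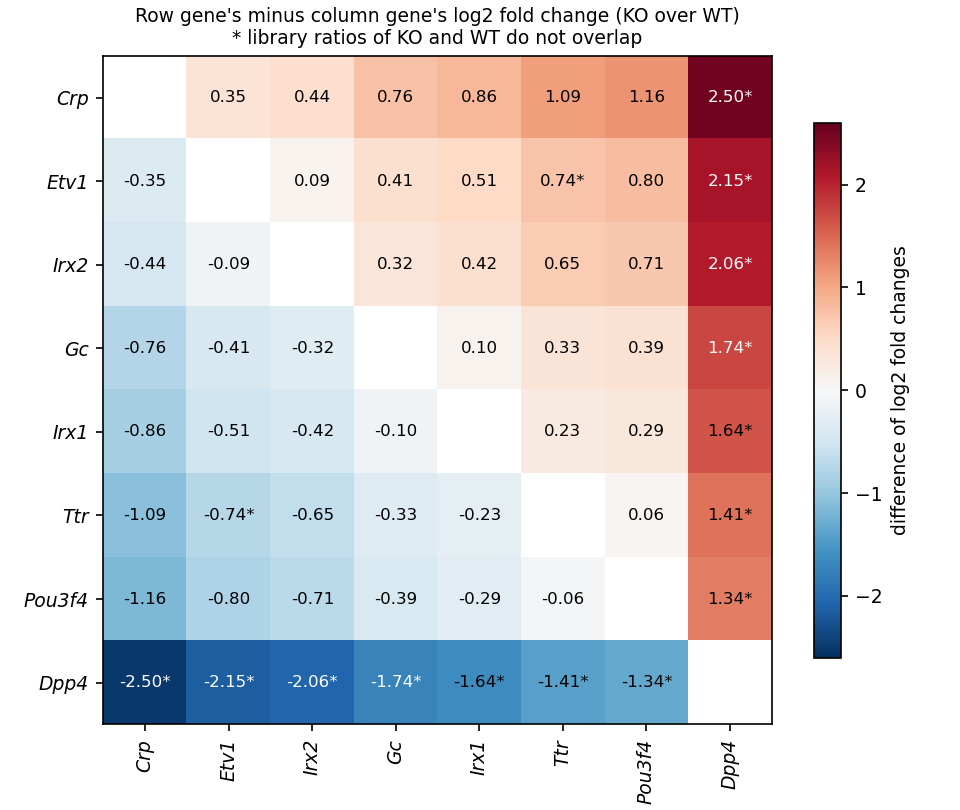
Difference between log2 fold changes (KO over WT) of the row gene and the column gene for the 28 pairs of the 8 genes, red where the row gene rose more. Asterisks mark pairs whose within-library ratios do not overlap between KO and WT, which are the 7 pairs with Dpp4 and the pair of Etv1 and Ttr.

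Gcg, the defining alpha cell product, gave a common measure. It had 2535429, 1855041, 2053909 and 2018158 normalized counts in KO islets, against 374922, 540428, 768066 and 1003476 in WT islets. KO libraries were above all WT libraries, and WT libraries spread widely (log2 fold change of 1.74 ± 0.33, adjusted p = 0.00657). Scaled to 1000000 counts of Gcg, Irx2 came to 567 ± 23.6 in KO islets and 624 ± 106 in WT islets, and Etv1 to 2900 ± 214 and 3000 ± 566 in KO and WT islets (SD, n = 4 each). The log2 difference relative to Gcg was -0.13 for Irx2 (exact p = 0.429) and -0.03 for Etv1 (exact p = 0.914), with overlapping groups. Those 2 genes therefore had ratios to Gcg that overlapped between labels, which does not show that they are equal.

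Ttr and Dpp4 had ratios to Gcg that did not overlap between labels. How many of all genes had such ratios was not computed. Most genes were lower relative to Gcg (90.6% in the limma-trend fit given below), so this separation is not shown to be particular to Ttr and Dpp4. On the same scale Ttr came to 27800, 27800, 28700 and 26000 in KO islets against 62200, 55900, 42100 and 33600 in WT islets, a log2 difference of -0.77. For Dpp4 the ratio was 900 to 1240 in KO islets and 2850 to 8560 in WT islets, a log2 difference of -2.18. Both had the smallest exact p of 0.0286, which is 0.114 after adjustment over the 8 genes, and paired by replicate number neither could go below an exact p of 0.125. This pattern depended on the comparator. Against the mean log2 level of the 10 other alpha cell genes listed, chosen after the data were seen, Ttr differed by 0.10 with overlapping groups (exact p = 0.314) and Dpp4 by -1.31 without overlap. Etv1 was then 0.84 higher, also without overlap (exact p = 0.0286, adjusted p = 0.114 for both Etv1 and Dpp4). In a limma-trend fit of every gene relative to Gcg, chosen after the data were seen, Dpp4 was lower (-2.18 ± 0.38, adjusted p = 3.48e-06) and the other 7 did not pass, among them Ttr (-0.77 ± 0.42, adjusted p = 0.077). In that fit 90.6% of all genes were lower, so the call of Dpp4 is shared with most of the table. Irx1 (-0.54 ± 0.37), Gc (-0.44 ± 0.40), Pou3f4 (-0.84 ± 0.51) and Crp (0.32 ± 0.45) had estimates too small beside their errors to place them above or below Gcg.

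**Figure D4:**
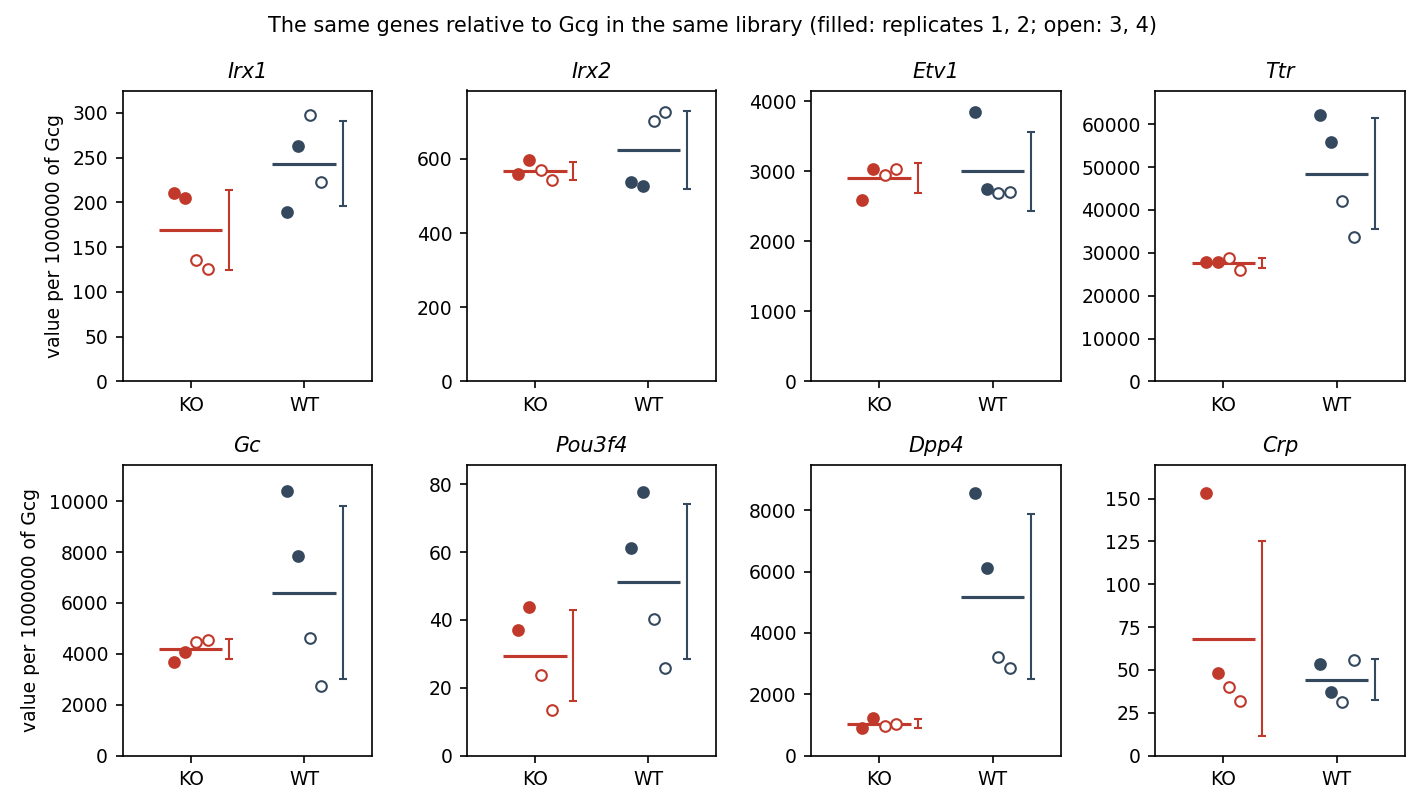
Values of the 8 genes per 1000000 counts of Gcg in the same library, KO left of WT, with filled points for replicates 1 and 2, open points for 3 and 4, lines for means and bars for SD (n = 4 each). The groups overlap for every gene but Ttr and Dpp4, whose KO values lie below all WT values.

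Of 10 other genes listed as alpha cell genes, 6 were higher, 1 lower and 3 did not pass. Besides Gcg, the rises included Avpr1b, a vasopressin receptor gene, at 1.72 ± 0.32 (adjusted p = 0.00587), and Slc38a5, an amino acid transporter gene, at 1.46 ± 0.18 (adjusted p = 0.00101). Tm4sf4 was lower, like Dpp4, at -0.66 ± 0.16 (adjusted p = 0.0201). Sstr2, Peg3 and Slc7a2, a cationic amino acid transporter gene, did not pass. Slc7a2 had 10740 to 13580 normalized counts in KO islets and 12759 to 15465 in WT islets.

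**Figure D5:**
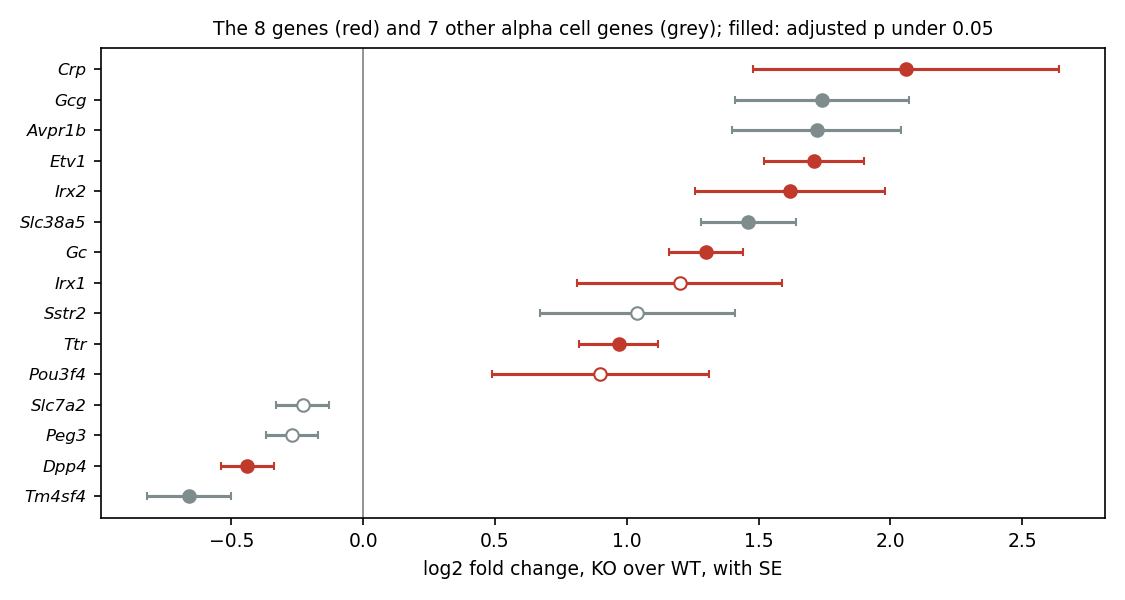
Log2 fold change with SE, KO over WT, of the 8 genes (red) and 7 of the other genes listed as alpha cell genes (grey), filled where the adjusted p is under 0.05. Dpp4 and Tm4sf4 are the filled points left of 0, and Crp has the widest bar.

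The library sets separated some of the 8 genes within a label. In KO islets Irx1, Pou3f4, Crp and Dpp4 were higher in both of replicates 1 and 2 than in replicates 3 and 4, and the ranges of Irx2, Etv1, Ttr and Gc overlapped between the sets. In WT islets Irx1, Irx2, Etv1, Ttr and Crp were lower in both of replicates 1 and 2, Gc and Dpp4 were higher in them, and Pou3f4 overlapped.

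Factors shared by islet endocrine cells were read for contrast, with the difference between the lists not tested. Of 12 measured genes, 0 were higher, 2 were lower (Foxa3, -0.50 ± 0.15, adjusted p = 0.045, and Myt1, -0.22 ± 0.07, adjusted p = 0.0413), and 10 did not pass, among them Pax6 at -0.36 ± 0.15 (adjusted p = 0.119). Markers of other islet cells moved as well. Of 11 beta cell markers 8 were lower and 3 did not pass, and of 8 delta, PP and epsilon cell markers 7 were higher and 1 did not pass. Values are relative to the whole library, and the part of lower beta cell transcripts in the higher alpha cell values was not tested. Acinar markers summed to 151995 to 454132 in KO islets and 21653 to 294082 in WT islets, and 0 of 11 measured passed.

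By profile over the 8 libraries, genes near to each of the 8 were found among 12227 genes with a mean of at least 50, as a small root mean square difference of centred log2 values. Tgm2 lay at 0.189 from Irx1. Eef1a2 was nearest to Irx2 (0.114), Oxtr, the oxytocin receptor gene, to Etv1 (0.122) and Tram1l1 to Ttr (0.055). Gc had Rbm11 (0.135) and, next, Psat1 (0.136) and Phgdh (0.163), both enzymes of serine synthesis. Astn2 was nearest to Pou3f4 (0.185), Emc9 to Dpp4 (0.052) and Fgfr3 to Crp (0.315). Gcg lay at 0.166 from Irx2 and 0.169 from Etv1. All profiles share the same 8 libraries and the difference between labels, so these distances are descriptions.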

How the data were processed

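Islet RNA of 4 KO and 4 WT mice was sequenced. The design text gives 4 mice a genotype, so libraries were taken as animals. The authors' tools, per the submitters' processing notes, included edgeR 3.16.15, RSEM 1.2.31, STAR 2.5.3a and bcl2fastq 2.20, and the build was GRCm38.p5. The sources used here do not give settings or strandedness. The deposited table lists 14126 genes. Its 8 library columns are normalized counts, rounded by the authors, a score and not raw counts, and 0 columns belonged to other samples. The authors also deposited a log2 fold change, a log2 CPM, a likelihood ratio score, a p-value and an FDR per gene.

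Here limma-trend (limma 3.58.1, R 4.3.3) was run on log2(value + 1) for genes that reached 1 in 4 or more libraries, with Benjamini-Hochberg adjustment over all 14121 of them and a threshold of 0.05. All 8 genes passed that filter. Fold changes are on this scale, which understates those of low genes. Read depth was sought in the spacing of low values, but the factors found moved with the search grid, so depth is taken as unknown. Ratios were compared by exact two-sided permutation tests over the 8 libraries without pairing (scipy 1.17.1), with sign flips within replicate numbers as an alternative. The fitting script was tested on simulated data. Same-numbered libraries of the 2 groups deviated together (r of 0.327, 0.583, 0.664 and 0.381 over 13081 genes with a mean over 50). Differently numbered libraries were not compared, and both groups share the split between library sets. These values therefore do not show that replicate numbers pair the samples, which the labels do not say either. A fit with replicate as a block was an alternative. Others were the pseudocount, filters, scaling, library sets, library weights and each library left out.

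Levels per kilobase used exon sums of GENCODE M21. The 8 genes and all lists were chosen with earlier results of these data known. The text names all 8 genes, up to 3 called genes of largest change per related list or, with none called, the 2 most abundant, and the nearest profiles. Ern1, Slc38a5, Slc7a2, Dusp5, Tm4sf4, Krt19, Serpina3n, Pax6, Dpp7, Dpp9 and genes completing a count of 6 or fewer fall outside it and were chosen after their values were seen. Some genes of these lists are not reported here, though the lists' counts include them, and 1 planned comparator in place of Gcg is not reported.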

Additional observations from a re-analysis of the deposited data

Results flagged for a closer look

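A library far from the others of its group (Dixon's test at 95%) was looked for in 32 groups of 4 values, the 8 genes as values and relative to 1000000 counts of Gcg in KO and in WT islets. Chance flags about 1 in 20 groups, and 5 were flagged. Crp had 389 normalized counts in KO replicate 1, above the other KO libraries, and 56 in WT replicate 4, above the other WT libraries. Relative to Gcg, Crp in KO replicate 1 came to 153, again above the rest. Gc had 7558 normalized counts in KO replicate 2, below the other KO libraries. Etv1 relative to Gcg came to 3850 in WT replicate 1, above the other WT libraries.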

How the results depend on the processing

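No fold change of the 8 genes changed sign under any alternative run, and Irx2, Etv1, Ttr and Gc were called higher in all of them. Over all genes 1562 were higher and 1385 lower in KO islets. These counts were 2400 and 2102 with the library set (1 and 2, or 3 and 4) in the model, which called 6 of the 8 genes higher and 1 lower. With any single library left out they ranged from 1121 to 1684 higher and from 863 to 1599 lower, the lowest being 863 without WT replicate 2 and 909 without KO replicate 4. Between 4 and 6 of the 8 genes were then higher and 0 to 1 lower. With totals rescaled without hormone and mitochondrially encoded genes, 6 of the 8 were higher and 0 lower, and 63.2% of called genes were higher in place of 53.0%. That scaling moved the median of all genes to 0.043. Irx1 passed under it (adjusted p = 0.0491), with the library set in the model (0.0367), in replicates 1 and 2 alone (0.00731) and with library weights (0.0383). With the replicate block 1999 genes were higher and 1649 lower, and the block changed no call of the 8 genes. Paired by replicate number, the exact tests between genes still called 0. Relative to Gcg, the exact tests called 0 of the 8 genes and the limma-trend fit added later called 1. Read depth is unknown, and low values such as those of Pou3f4 and Crp carry the most counting error. The cause of these changes was not tested.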

Other observations

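Other carriers of thyroid hormone, retinol and vitamin D were read beside Ttr and Gc. Of 8 measured genes of carriers, receptors and enzymes, 3 were higher in KO islets, 1 was lower and 4 did not pass. Rbp4, the retinol-binding protein that transthyretin binds in blood and a gene of delta cells in islets, had 4557 to 7103 normalized counts in KO islets and 2416 to 2930 in WT islets (log2 fold change of 1.08 ± 0.13, adjusted p = 0.000878). Dio1, which activates thyroid hormone, was lower, with 363 to 607 in KO islets and 624 to 1055 in WT islets (-0.80 ± 0.19, adjusted p = 0.0193). Vdr, the vitamin D receptor, had 7217 to 7931 in KO islets and 8467 to 8799 in WT islets and did not pass (adjusted p = 0.0967).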
